A study of Homo sapiens with 6 samples.

Results

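Notch signaling passes between touching cells. A transmembrane ligand of the Jagged (JAG) or Delta-like (DLL) family on one cell binds a Notch receptor on its neighbor, and ADAM proteases and γ-secretase then release the intracellular part of the receptor, which joins the DNA-binding protein RBPJ in the nucleus and turns on repressors of the HES and HEY families and the feedback inhibitor NRARP. In the mammary gland the pathway is known for its part in the choice between basal and luminal fates, and in breast cancer for its links to growth and to stem-like cells. The gene set described here held 10 genes, listed by name: the receptors NOTCH1, NOTCH2 and NOTCH3, the ligands JAG1, JAG2 and DLL1, and the targets HES1, HES4, HEY1 and NRARP. All 10 were present among the 26334 genes counted, and all were among the 16117 genes that passed a filter on low counts and were tested.

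The cells were MCF10DCIS.com (MCF10DCIS), a human line of the MCF10A lineage that grows as ductal carcinoma in situ when placed in mice. Cells were infected with a vector carrying a U6-driven hairpin and a puromycin resistance gene, either pRSI-U6-shLuc-UbiC-TagRFP-2A-Puro against luciferase (shLuc, the control) or pRSI-U6-shWDR5-UbiC-TagRFP-2A-Puro against WDR5 (shWDR5), and both groups were selected with 3 µg/ml puromycin. The labels give a single shWDR5 vector name, while the study's methods speak of pooled WDR5 hairpins in these cells, so whether the silenced libraries carry 1 hairpin or a pool is not settled here. Each group had 3 poly-A RNA-seq libraries, and the comparison asks what silencing of WDR5, a core subunit of the histone H3 lysine 4 methyltransferase complexes, did to transcript levels. The infected cells were populations, not clones, and the labels do not say whether the 3 libraries of a group came from separate cultures, so that p-values measure only the spread between these libraries, which may be technical.

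Library totals were between 38218108 and 57640167 counted reads. WDR5 itself measured 16.5, 15.2 and 16.1 RPKM (reads per kilobase of gene length and 1e6 counted reads) in the shLuc libraries and 7.34, 7.65 and 6.52 RPKM in the shWDR5 libraries. It fell by 1.15 on the log2 scale (SE 0.074, n = 3 per group, edgeR adjusted p = 8.67e-07), so that silencing was partial. The markers EPCAM, CDH1, KRT5, KRT14, KRT17, TP63, KRT8 and KRT18 were present in every library, and their summed level was 3720 to 3990 RPKM in shLuc and 5040 to 5670 RPKM in shWDR5. This sum was carried by keratins: the basal markers KRT5, KRT14, KRT17 and TP63 rose (KRT17 from 1370 to 2620 RPKM), the luminal keratins KRT8 and KRT18 were not called, and the epithelial adhesion genes CDH1 (103 to 50.3 RPKM) and EPCAM (165 to 131 RPKM) fell (edgeR adjusted p = 2.64e-07 and 0.00317). Of the markers of other cell types, CD3E (T cells) was at 0 in every library, PTPRC (leukocytes), VWF (endothelium) and COL1A2 (fibroblasts) had at most 12 reads in any library, and PDGFRB (pericytes and fibroblasts) had 11 to 46 reads and was not called. PECAM1 (endothelium) and COL1A1 (fibroblasts) were measurable and fell, from 1.46 to 0.891 RPKM and from 3.72 to 2.63 RPKM (edgeR adjusted p = 5.65e-05 and 4.38e-04). The summed level of all 7 was 5.17 to 5.43 RPKM in shLuc and 3.38 to 3.93 RPKM in shWDR5. The part of these marker shifts in the results below was not tested.

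Upon WDR5 silencing, both Jagged ligands, NOTCH1 and the targets HES1, HEY1 and NRARP rose, while NOTCH2, NOTCH3 and DLL1 fell and HES4 did not pass the test. JAG1, with the largest fold change of the set after the barely detected HEY1, went from 47.3 RPKM ± 3.2 (SD, n = 3) to 93.9 RPKM ± 5.66 (SD, n = 3). In all, 6 of the 10 genes were called higher and 3 lower at an adjusted p below 0.05, whereas in the same fit 56.5% of all tested genes were called, 26.6% as higher and 29.9% as lower. The share called lower in the set, 30%, was thus near that of all genes. The median log2 fold change was 0.44 over the 10 genes and -0.01 over all tested genes. The genes of the set were chosen with earlier results of these data known. These shares and medians therefore describe the set and do not test it against all genes. HEY1 had passed the low-count filter only through the shWDR5 libraries, and without it 8 of 9 genes were called. In 9 of the 10 genes the shLuc and shWDR5 values did not overlap, as in 62.3% of all tested genes. In these bulk libraries, a change in the RNA of every cell and a change in the number of cells that carry it cannot be told apart.

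**Figure D1:**
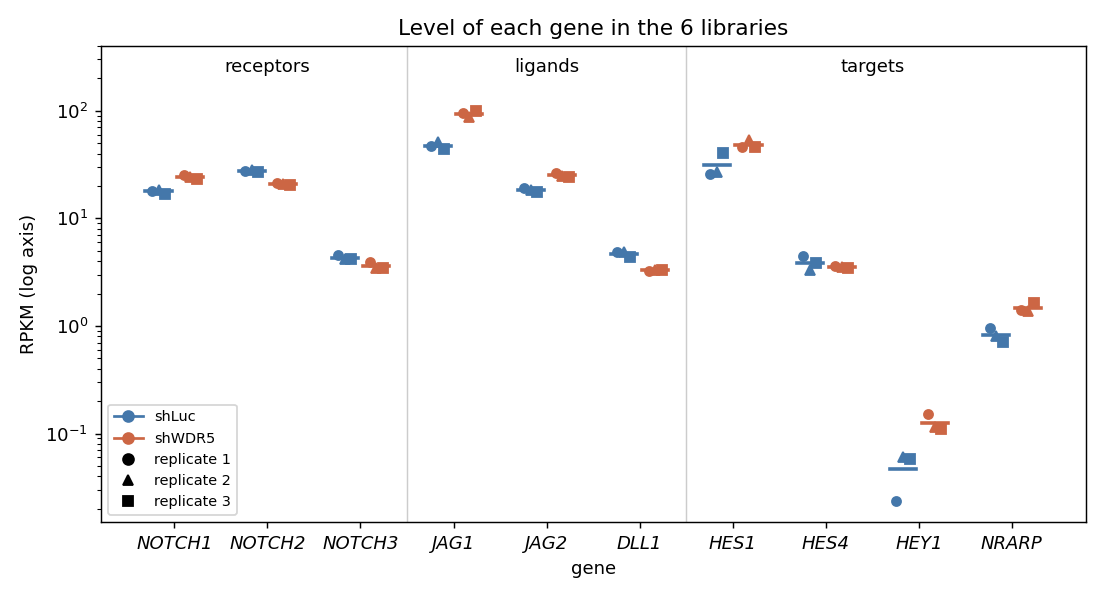
RPKM (log axis) of each gene in each library, with shLuc in blue, shWDR5 in orange, marker shapes for the replicate numbers and horizontal lines for group means. The groups overlap for HES4 only, and HEY1 lies far below the other 9 genes, at or under 0.151 RPKM.

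The paper states a stricter call for its patient-derived xenograft comparisons. It asks in addition for a log2 fold change of at least 0.6 in either direction and a level above 0.5 RPKM. Applied here, it called 18.4% of all tested genes, 1274 of them higher and 1688 lower. Of the members 3 (JAG1, HES1 and NRARP) were called, all 3 higher. NOTCH1, NOTCH2, NOTCH3, JAG2 and DLL1 changed by less than the required fold, and HEY1 was under the level.

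**Figure D2:**
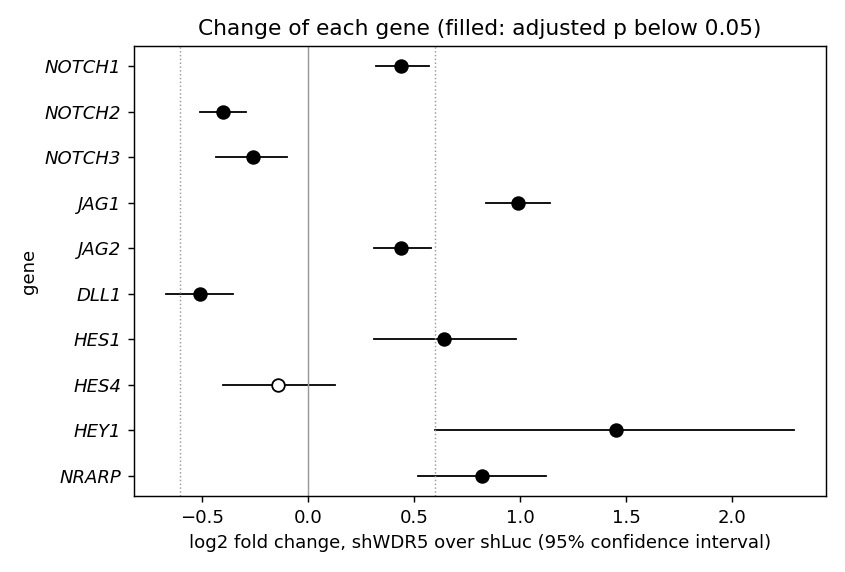
Log2 fold change of shWDR5 over shLuc for each gene, with its 95% confidence interval as a line. Filled points passed an adjusted p of 0.05, dotted lines stand at 0.6 in either direction, and HES4, from -0.40 to 0.13, is the one interval that spans 0.

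Among the receptors, NOTCH1 and NOTCH2 moved in opposite directions. NOTCH1 (hg19, chr9:139388896-139440238, minus strand), the receptor known from activating mutations in T-cell leukemia, measured 17.9, 18.5 and 16.9 RPKM in shLuc and 25.1, 24.1 and 23.4 RPKM in shWDR5. Every shWDR5 library lay above every shLuc library, and the gene rose by 0.44 on the log2 scale (SE 0.055, 95% interval 0.32 to 0.57, edgeR adjusted p = 7.05e-05), which is 1.36-fold. NOTCH2 (chr1:120454176-120612317, minus strand) measured 27.6, 28.1 and 27.0 RPKM in shLuc and 21.5, 20.8 and 20.2 RPKM in shWDR5. By RPKM, NOTCH2 was the highest of the receptors in each control library and second to NOTCH1 in each silenced library. NOTCH2 fell by 0.40 on the log2 scale (SE 0.050, 95% interval -0.51 to -0.29, edgeR adjusted p = 7.24e-05).

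NOTCH2 has a near copy of its first exons, NOTCH2NL, on the other arm of the same chromosome, and how reads matching both were counted is not given in the sources used here. NOTCH2NL was listed with 9.37 RPKM ± 0.294 (SD, n = 3) in shLuc and 5.91 RPKM ± 0.298 (SD, n = 3) in shWDR5. It fell by 0.66 on the log2 scale, in the same direction as NOTCH2, and the values of both are uncertain to the extent that reads were shared.

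NOTCH3 (chr19:15270444-15311792, minus strand), known above all from vascular smooth muscle, was the lowest of the receptors, at 4.58, 4.21 and 4.17 RPKM in shLuc and 3.91, 3.44 and 3.44 RPKM in shWDR5. The groups did not overlap, yet the closest libraries stood only 4.17 and 3.91 RPKM apart. NOTCH3 fell by 0.26 on the log2 scale (SE 0.074, edgeR adjusted p = 0.0107). Without shWDR5 replicate 2 the decrease was 0.23 and the adjusted p was 0.0534, so that the call was lost.

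The receptors were also compared as shares of their summed RPKM within each library, a measure on which library scaling has no effect. The NOTCH1 share was 35.8%, 36.4% and 35.2% in shLuc and 49.6%, 49.8% and 49.8% in shWDR5. The NOTCH2 share went the other way, from 55.5% ± 0.575 (SD, n = 3) to 42.9% ± 0.232 (SD, n = 3), and the NOTCH3 share from 8.70% ± 0.432 to 7.39% ± 0.319. The ratio of NOTCH2 to NOTCH1 was 1.54, 1.52 and 1.60 in the controls and 0.859, 0.865 and 0.860 after silencing, so that their order in RPKM was inverted in all 3 silenced libraries. This inversion depends on the gene lengths used. In raw reads NOTCH2 stayed above NOTCH1 in the silenced libraries, at 11803, 14000 and 10806 against 10804, 12718 and 9872. The sum of the 3 receptors was 49.7 RPKM ± 1.39 in shLuc and 48.6 RPKM ± 1.78 in shWDR5, a difference within the spread between replicates (exact permutation test, two-sided, p = 0.6). For each of the 3 receptor shares the groups did not overlap, and the two-sided exact permutation p was 0.1, the smallest that 3 against 3 libraries can give (adjusted p = 0.1 over the 6 shares of receptors and ligands tested).

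Among the ligands, JAG1 (chr20:10618332-10654694, minus strand), the gene mutated in Alagille syndrome, was the most abundant gene of the set in both groups. Its level was 46.8, 50.7 and 44.4 RPKM in shLuc and 94.8, 87.9 and 99.1 RPKM in shWDR5. The lowest silenced library was thus well above the highest control library. JAG1 rose by 0.99 on the log2 scale (SE 0.066, 95% interval 0.84 to 1.14, edgeR adjusted p = 1.15e-06), a 1.99-fold change, and 90.3% of all tested genes changed by as much or less in either direction.

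JAG2 (chr14:105607318-105635161, minus strand), the second Jagged ligand, had 19.3, 18.2 and 17.6 RPKM in shLuc and 26.5, 24.6 and 24.0 RPKM in shWDR5. It rose in every silenced library, by 0.44 on the log2 scale (SE 0.060, edgeR adjusted p = 1.21e-04). DLL1 (chr6:170591294-170599697, minus strand), a Delta-like ligand, measured 4.85, 4.84 and 4.36 RPKM in shLuc and 3.26, 3.29 and 3.31 RPKM in shWDR5. All silenced libraries were lower, and DLL1 fell by 0.51 on the log2 scale (SE 0.072, 95% interval -0.67 to -0.35, edgeR adjusted p = 1.64e-04).

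The summed level of the 3 ligands was 70.9, 73.8 and 66.4 RPKM in shLuc and 125, 116 and 126 RPKM in shWDR5. JAG1 made up 67.2% ± 1.42 (SD, n = 3) of this sum in the controls and 76.8% ± 1.36 (SD, n = 3) after silencing, JAG2 26.2% ± 1.29 and 20.5% ± 1.29, and DLL1 6.65% ± 0.165 and 2.69% ± 0.131. JAG2 therefore rose in level while its share of the ligand sum became smaller. The ratio of summed ligand to summed receptor RPKM was 1.42, 1.45 and 1.38 in shLuc and 2.46, 2.39 and 2.69 in shWDR5. For the ligand sum, each ligand share and this ratio the groups did not overlap, and each exact permutation p (two-sided) was 0.1, the smallest possible here.

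The targets code for proteins that act in the nucleus. HES1 (chr3:193853931-193856401, plus strand), a basic helix-loop-helix repressor that also represses its own gene, measured 25.6, 26.9 and 40.7 RPKM in shLuc and 46.2, 53.6 and 45.7 RPKM in shWDR5. All silenced libraries were above all controls, but shLuc replicate 3 stood apart from the other two controls and lay nearer to the silenced group. HES1 had for this reason a relative spread (SD as a percent of the mean) of 27.0% in shLuc, against 1.98% to 6.76% for the receptors and ligands. The gene rose by 0.64 on the log2 scale (SE 0.152, 95% interval 0.31 to 0.98, edgeR adjusted p = 0.00430). Without shLuc replicate 3 the increase was 0.89, and over all left-out libraries it was between 0.53 and 0.89.

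HES4 (chr1:934342-935552, minus strand), a HES factor that humans have and mice lack, had 4.48, 3.30 and 3.84 RPKM in shLuc and 3.61, 3.55 and 3.44 RPKM in shWDR5. The silenced values lay within the control range. Its log2 fold change was -0.14 (SE 0.119, edgeR adjusted p = 0.348), with a 95% interval of -0.40 to 0.13, which holds both 0 and a moderate decrease. HES4 rested on 133 to 230 reads a library, fewer than any receptor or ligand of the set.

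HES1 and HES4 are shown here with their promoter sequence because they are textbook RBPJ targets of the same family, of which HES1 was called and HES4 was not. Whether their changes differ from each other was not tested. Promoter sequences came from RefSeq (GRCh38.p14, a later build than the hg19 coordinates above) and were matched for 8 of the 10 genes; the 250 bases before the start were searched on both strands for TGGGAA, the core of the RBPJ site, CACGTG, the E-box, and CACNAG, the N-box, both of them elements to which proteins of the HES and HEY families can bind. Capitals mark TGGGAA, and both stretches are written 5′ to 3′ on the gene's strand. The first runs from 180 to 21 bases before the HES1 start (GRCh38.p14, chr3:194135968-194136127, plus strand), and the second from 88 to 59 bases before the HES4 start (GRCh38.p14, chr1:1000156-1000185, minus strand). The HES4 stretch overlaps an exon that GENCODE annotates for HES4 itself, whereas the HES1 stretch overlaps none.
HES1: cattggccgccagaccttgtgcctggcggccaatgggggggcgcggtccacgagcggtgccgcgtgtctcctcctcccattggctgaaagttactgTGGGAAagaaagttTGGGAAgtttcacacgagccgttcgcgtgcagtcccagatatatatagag
HES4: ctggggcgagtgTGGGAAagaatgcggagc

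The HES1 promoter held TGGGAA at 84 and at 70 bases before the start, and the HES4 promoter held it once, at 76 bases. The longest run shared by these stretches was 12 bases long, tgTGGGAAagaa, and contains the site. TGGGAA was found in 2 of the 8 promoters searched and in 20.8% of all 35116 promoters, and at least 2 copies in 1 of the 8 and in 2.9% of all. CACNAG was found in 2 of the 8, 3 times in HES1 and once in NOTCH3, and in 32.0% of all promoters. CACGTG was found in none of the 8 and in 6.34% of all promoters. These matches describe letters in a short window and say nothing about binding in these cells.

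NRARP (chr9:140194083-140196703, minus strand), the Notch-regulated ankyrin repeat protein that dampens signaling by binding the intracellular receptor with RBPJ, measured 0.957, 0.807 and 0.709 RPKM in shLuc and 1.41, 1.37 and 1.64 RPKM in shWDR5. It rested on 75 to 124 reads in the controls and 171 to 204 reads in the silenced libraries, and the groups did not overlap. NRARP rose by 0.82 on the log2 scale (SE 0.134, 95% interval 0.52 to 1.12, edgeR adjusted p = 4.30e-04).

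HEY1 (chr8:80676245-80680098, minus strand), a HEY repressor with known roles in vessel and heart development, was barely detected, with 3, 6 and 6 reads in shLuc and 18, 17 and 13 reads in shWDR5. This is 0.0236, 0.0600 and 0.0577 RPKM against 0.151, 0.116 and 0.111 RPKM, and all silenced libraries were higher. The ratio of the summed, library-scaled counts was 2.77 with an exact 95% counting interval of 1.52 to 5.33, which covers counting error only. The fitted log2 fold change was 1.45 (SE 0.382, edgeR adjusted p = 0.00804). No control library reached the filter's level of 0.213 CPM (counts per 1e6 reads), so the gene was tested only because it was higher after silencing. HEY1 was the called gene of the set with the largest fitted change, and the tested genes whose log2 CPM followed it most closely over the 6 libraries were ASB9 (Pearson r = 0.997), SRD5A2 (r = 0.994) and CSNK1G2-AS1 (r = 0.994). These correlations are the 3 highest from a search of all tested genes outside the set, over only 6 libraries. Values near 1 can come from such a search alone, and no shared regulation is read from them. How much of them is the difference between the groups was not separated.

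On the length-corrected RPKM scale, the order of mean levels in the controls was JAG1, HES1, NOTCH2, JAG2, NOTCH1, DLL1, NOTCH3, HES4, NRARP and HEY1. Neighbors whose libraries overlapped were HES1 and NOTCH2, JAG2 and NOTCH1, DLL1 and NOTCH3, and NOTCH3 and HES4. After silencing the order was JAG1, HES1, JAG2, NOTCH1, NOTCH2, NOTCH3, HES4, DLL1, NRARP and HEY1, with overlap of JAG2 and NOTCH1 and of NOTCH3 and HES4. NOTCH2 thus fell behind JAG2 and NOTCH1, and DLL1 behind NOTCH3 and HES4.

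The remaining parts of the pathway were taken from a list of 57 further genes, of which 52 were tested. It held the other receptors and ligands, the enzymes that modify and cleave them, and the nuclear factors. In this list 20 genes were higher and 18 lower in shWDR5 cells, 73.1% of those tested against 56.5% of all tested genes (38.5% against 26.6% higher, 34.6% against 29.9% lower), and the median log2 fold change was 0.04, so that the list had no common direction. NEURL1 had passed the low-count filter only through the shWDR5 libraries. Without it 37 of 51 genes were called (72.5%), 19 higher and 18 lower. With library totals alone as scaling, 14 of all 52 genes were higher and 20 lower. This list, too, was chosen with earlier results of these data known. Its shares, and those of its roles below, therefore describe it and do not test it against all genes. DLK1, HES3 and HEYL had no read in any library, HES5 had at most 1, and DLL4 had between 2 and 11, and these 5 genes were not tested.

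Of the 5 listed enzymes that put sugars on the receptor, 4 rose (80% against 26.6% of all tested genes) and none fell, also with library totals as scaling, with POFUT1, which adds O-fucose, at a log2 fold change of 0.07 (SE 0.054, edgeR adjusted p = 0.281). LFNG (Lunatic Fringe), which extends O-fucose and so changes which ligands a receptor answers, went from 2.98 RPKM ± 0.325 (SD, n = 3) to 6.27 RPKM ± 0.363 (SD, n = 3), up by 1.07 on the log2 scale (SE 0.090, edgeR adjusted p = 4.93e-06). Its relatives MFNG and RFNG rose by 0.40 and 0.33, and the O-glucosyltransferase POGLUT1 rose by 0.40.

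Among the E3 ligases and endocytic factors, 7 rose, 5 fell and 2 were not called (50% higher and 35.7% lower, against 26.6% and 29.9% of all tested genes), whereas with library totals as scaling 3 rose and 5 fell. NEURL1B, an E3 ligase that drives ligand endocytosis, had the largest change of the list, from 1.20 RPKM ± 0.0159 (SD, n = 3) to 0.211 RPKM ± 0.0111 (SD, n = 3), and fell by 2.51 on the log2 scale (SE 0.097, edgeR adjusted p = 6.82e-08). Its paralog NEURL1 was very low, at 10, 7 and 9 reads in shLuc and 33, 23 and 35 in shWDR5, and rose by 1.60 (SE 0.332, edgeR adjusted p = 0.00203), with only 1 control library above the filter's level. NEURL1 was thus tested, and counted among the 7 that rose, only because it was higher after silencing. MIB2 (Mind bomb 2), also a ligase for Notch ligands, went from 3.38 RPKM ± 0.161 to 6.82 RPKM ± 0.357 and rose by 1.01 (edgeR adjusted p = 1.72e-06). MIB1, the main Mind bomb ligase, had a log2 fold change of -0.02 (SE 0.150, edgeR adjusted p = 0.930). DTX3, a Deltex ligase, fell by 1.01 (edgeR adjusted p = 3.29e-05).

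In the nuclear complex 1 gene rose, 3 fell and 3 were not called, a called share of 57.1% that was close to the 56.5% of all tested genes. RBPJ, the DNA-binding factor itself, went from 14.8 to 10.3 RPKM and fell by 0.52 on the log2 scale (SE 0.125, edgeR adjusted p = 0.00470), while the coactivators MAML1, MAML2 and MAML3 had log2 fold changes of 0.04 to 0.05 (-0.01 each with library totals as scaling) and were not called. Of the 8 corepressors 2 rose (25% against 26.6%) and 4 fell (50% against 29.9%). The Groucho relative TLE2 went from 1.00 to 0.659 RPKM and fell by 0.60 (edgeR adjusted p = 0.00121). Of the 9 proteases and γ-secretase subunits 2 rose, 3 fell and 4 were not called, a called share of 55.6% that was close to the 56.5% of all tested genes, and with library totals as scaling 2 rose and 5 fell. The γ-secretase subunit gene APH1B went from 1.08 to 0.694 RPKM and fell by 0.64 on the log2 scale (edgeR adjusted p = 0.00104).

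Of the 4 other HES and HEY factors tested, 2 rose and 1 fell (50% and 25%, against 26.6% and 29.9% of all tested genes). HES2 went from 4.87 RPKM ± 0.130 (SD, n = 3) to 7.37 RPKM ± 0.231 (SD, n = 3) and rose by 0.60 (edgeR adjusted p = 2.04e-05). HES7, the oscillating factor of somite formation, fell by 1.69 (SE 0.215, edgeR adjusted p = 7.92e-05), on 61, 50 and 41 reads in shLuc and 14, 19 and 21 reads in shWDR5. HEY2 rose by 0.70 (SE 0.262, edgeR adjusted p = 0.0411), on 16, 13 and 13 reads against 24, 24 and 31, and with library totals as scaling its adjusted p was 0.0557. Of the 5 other receptors and ligands tested, 2 rose and 2 fell (40% each, against 26.6% and 29.9% of all tested genes). With library totals as scaling 1 of them rose and 2 fell. Among them, the noncanonical ligand gene DNER, best known from neurons, went from 2.16 RPKM ± 0.0570 to 4.10 RPKM ± 0.250 and rose by 0.92 (edgeR adjusted p = 4.90e-06). Transcripts of the HES and HEY family did not share a direction. HES1, HES2 and HEY2 rose, HES7 fell, and HES4 and HES6 were not called, leaving aside HEY1, which could be tested only because it was higher after silencing.

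**Figure D3:**
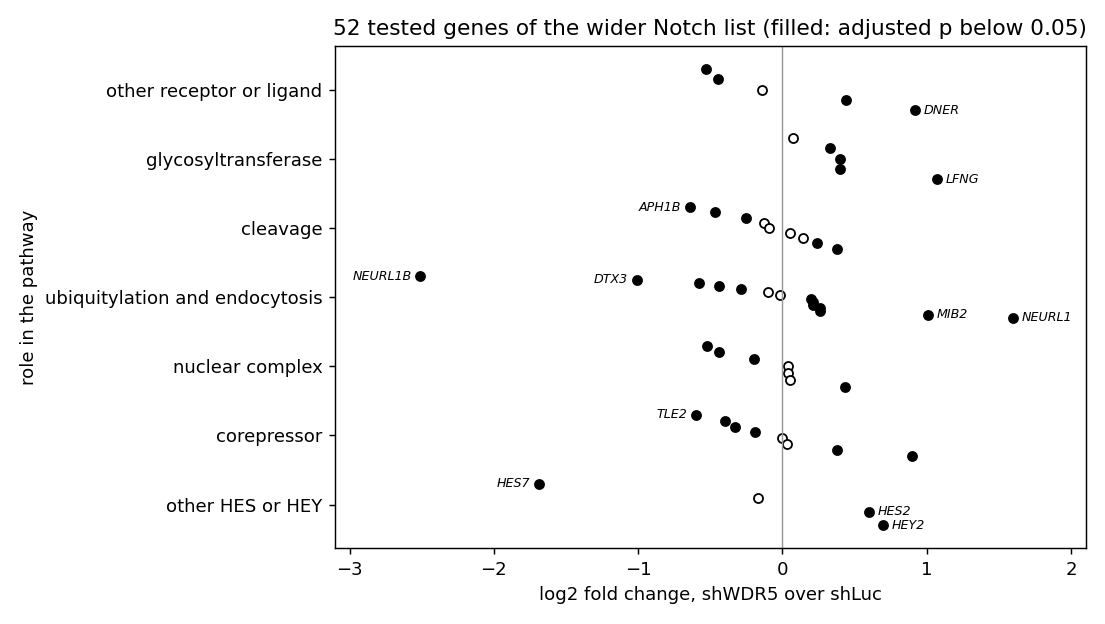
Log2 fold change of shWDR5 over shLuc for the 52 tested genes of the wider list, by role. Filled points passed an adjusted p of 0.05, and labels name the genes described in the text by the size of their change, from NEURL1B at -2.51 to NEURL1 at 1.60.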

How the data were processed

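The deposited table held raw read counts per gene in 6 libraries, which per the labels the authors made with TopHat2 (2.1.0) and featureCounts on hg19 (GRCh37); the strand setting is not given in the sources used here. A deposited edgeR (3.2.2) table of fold changes and p-values, the authors' own comparison, was not used. Counts were tested in edgeR (4.0.16, R 4.3.3) with filterByExpr (minimum count 10), TMM factors and the quasi-likelihood F test, shWDR5 against shLuc, with Benjamini-Hochberg adjustment over all genes tested; a gene was called at an adjusted p below 0.05. The SE was derived from the fitted coefficient and F. RPKM used TMM-scaled library totals and the deposited gene lengths, which depend on the annotation. The fit was tested on simulated data. No exon of the 10 genes overlapped another counted gene on either strand. The labels name no batch. Within each group every pair of libraries differed by more than counting error (chi-square per degree of freedom at least 7.15). The genes and lists were chosen with earlier results of these data known. Genes of the wider list were named when among the 12 called with the largest absolute log2 fold change, of which 1 is not reported here; those given for a role alone (RBPJ, MAML1 to MAML3, MIB1, MFNG, RFNG, POGLUT1, POFUT1 and HES6) were chosen after their values were seen. Alternatives were other scalings, no filter, DESeq2 (1.42.0), a replicate block, a fold threshold, and leaving out each library.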

Additional observations from a re-analysis of the deposited data

How the results depend on the processing

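No gene of the set turned its direction under the alternatives run, although HES4 came to 0.00 at its closest, and 9 genes of the set were called under DESeq2 size factors, library totals, no low-count filter and DESeq2. Requiring a log2 fold change of at least 0.6 and more than 0.5 RPKM reduced the genes called from 9112 to 2962, the members from 9 to 3 and the wider list from 38 to 8. Both conditions changed together and were not separated for all genes. Among the members, NOTCH1 (0.44), NOTCH2 (-0.40), NOTCH3 (-0.26), JAG2 (0.44) and DLL1 (-0.51) missed the fold, and HEY1 (1.45) the level. Leaving out 1 library at a time gave 8120 to 8847 genes called, 8 or 9 members and 33 to 37 genes of the wider list. NOTCH3 was then between -0.33 and -0.21 and lost its call without shWDR5 replicate 2, HES1 was between 0.53 and 0.89, HEY1 between 1.09 and 1.65, and HES4 between -0.25 and 0.00.

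The labels number the libraries 1 to 3 in each group. Deviations from the group means correlated at 0.37, 0.04 and 0.12 for libraries of the same number, so that the number was not taken as a pairing; not every library correlated best with its own number. With the replicate number as a block, 10412 genes, 9 members and 40 genes of the wider list were called, and no member changed its call. Depth limited HEY1, with 15 reads in all controls, and HES4 and NRARP rest on 75 to 230 reads a library.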
